A study of Homo sapiens with 4 samples.

Results

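The BCL2 family, in its 10 members BCL2, MCL1, BCL2L1 and BCL2A1 (anti-apoptotic), BAX and BAK1 (effectors), and BCL2L11, BBC3, PMAIP1 and BID (BH3-only), was examined for H3K27Ac occupancy, an acetyl mark of histone H3 carried by active enhancers and promoters. The members were taken by name, as the main genes that decide whether the mitochondrial route of apoptosis is opened, and are 10 of 20033 genes annotated as protein-coding in GRCh38.p14. H3K27Ac was profiled by ChIPmentation, an immunoprecipitation in which the Tn5 transposase adds the sequencing adapters, in MOLM13 cells, an established human AML line of the monocytic lineage with MLL1-r. One group was the control, for which the label gives no treatment and the protocol names a DMSO arm, and the other was treated with 500 nM of SNDX-50469, a Menin inhibitor, for 16 h. Each group is 1 library of the same cell line, so differences have no replicate check and no p-value is given. The 2 input libraries were not analysed here.

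BCL2 family proteins act at the outer mitochondrial membrane. The effectors BAX and BAK1 form the pores through which cytochrome c leaves, the anti-apoptotic members hold them and the BH3-only proteins in check, and the BH3-only proteins carry stress signals that free or activate the effectors. AML cells lean on BCL2 and MCL1 for survival, BCL2 is the target of venetoclax, and Menin holds MLL1 and its fusion proteins at their target genes.

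The control list held 245875 peaks covering 224 Mb and the SNDX-50469 list 54061 peaks covering 29.4 Mb, called separately. The peak caller gave each peak a −log10 p and, after its correction, a −log10 q, both higher for stronger peaks. The control list reached down to a −log10 p of 2.68 and the other list to 3.93, so they do not end at the same strength. No read totals are given and the depth is unknown, and whether fewer cells carried the mark or each cell carried less cannot be told apart. The absence of a peak after treatment therefore means only that none was called. Of the markers of MOLM13 cells, 10 of 10 had between 5966 and 10001 bp under control peaks in the 5 kb before and after the 5′ end. Of 16 markers of other cell types 10 had some coverage there, from 305 bp at KRT8 and KRT18 to 8792 bp at CD79A, while HBB, EPCAM, ALB and COL1A2, the defining genes of 4 other cell types, were among the 6 with none. The part of other cells in the results was not tested.

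For each member the positions within 5 kb on either side of the outermost annotated 5′ end were separated from the rest of the gene body with its 5 kb flanks. The kept share is the length covered by control peaks that was also covered after treatment, as percent of the control covered length. All 10 members carried control peaks near the 5′ end, where 2688 to 8562 bp of the 10001 bp was covered. Any control peak there was found at 67.3% of protein-coding genes with a known strand, and at least 2500 bp was covered at 40.5%. Following SNDX-50469 treatment the covered length near the 5′ end was between 0 and 3601 bp, and at least 2-fold lower in 10 of 10 members, against a background of 89.7% of genes. Of the summed 64385 bp near the 5′ ends 21.0% was kept. Of the 192103 bp over the rest 4.67% was kept, and the median over the members was 0.342%. The covered length over the rest was at least 2-fold lower in 9 of 10 members (background 94.4%), BAX being the exception, and some of it was kept in 5 of 10 (background 32.0%). Over gene and flanks together 9 of 10 members kept some length (background 55.3%). The backgrounds for kept length in this paragraph take in every gene with any control coverage. Each member had at least 7589 bp over gene and flanks, so these backgrounds are not matched for covered length. At least 50% was kept by 0 of 10 members near the 5′ end (background 8.01%), and by BAX alone over the rest (1.70%) and over gene and flanks (2.74%).

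**Figure D1:**
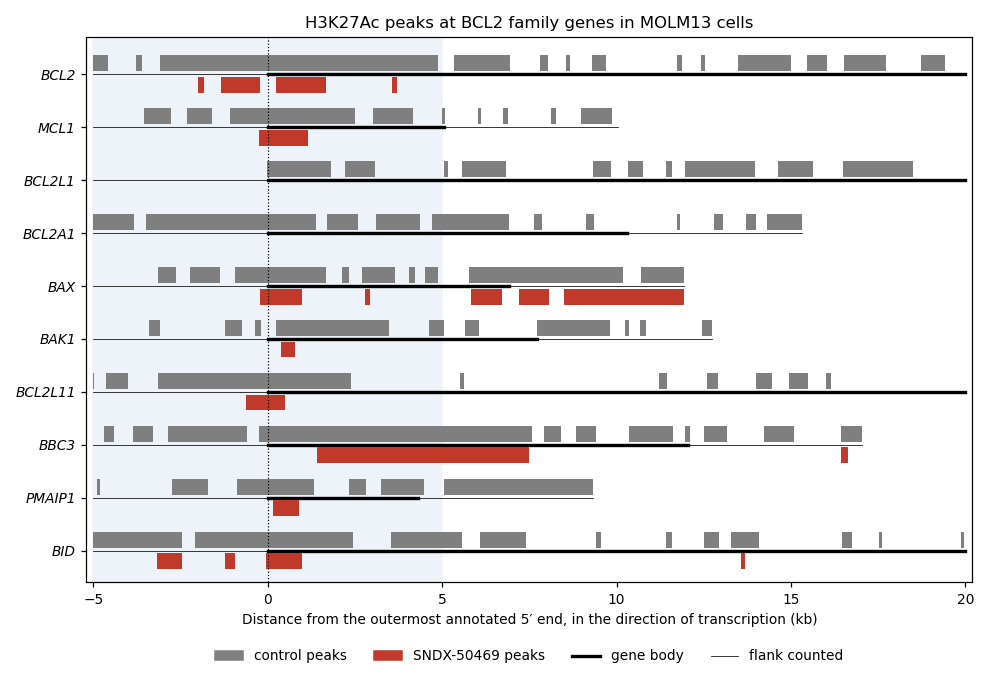
H3K27Ac peaks at the 10 BCL2 family genes from 5 kb before to 20 kb after the outermost 5′ end (horizontal axis in kb, in the direction of transcription; shaded, the 5 kb on each side of the 5′ end). Control peaks are grey above each line and SNDX-50469 peaks red below it. Red peaks occur within the shaded part at 8 genes, and BCL2L1 and BCL2A1 have none there.

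Some control covered length was kept near the 5′ end in 8 of 10 members. The background is 50.8% of all genes with control coverage in this window and 72.0% of the 7960 genes with at least 2500 bp covered there, so that the count lies near that of equally covered genes. The median kept share was 20.3% for the members, 1.84% for all covered genes and 14.5% for the genes with at least 2500 bp. The kept share was higher near the 5′ end than over the rest in 7 of 10 members, equal in 1 and lower in 2. Of 11267 genes with control coverage in both parts it was higher in 5421 (48.1%), equal in 3738 and lower in 2108. The background percent thus counts many ties as not higher. BCL2A1 was at 0 in both parts, and BAX and BCL2L1 had the higher share over the rest.

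**Figure D2:**
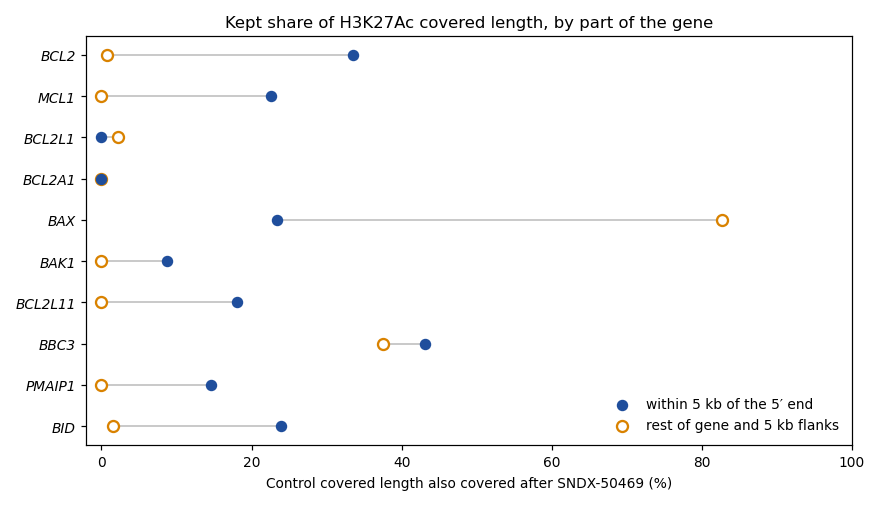
Percent of the control covered length that was also covered after SNDX-50469, for each BCL2 family gene, within 5 kb of the 5′ end (filled) and over the rest of the gene with 5 kb flanks (open). BCL2 lies at 33.5% and 0.683%, MCL1 at 22.6% and 0%, and BAX at 23.4% and 82.7%.

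BCL2, the anti-apoptotic protein that gave the family its name, lies on chromosome 18 from 63123346 to 63320090 on the minus strand. It had the longest control coverage of the members, in a counted region of 206745 bp. The share of this region covered in control was 62.2%, below BBC3 (70.8%), BAX (66.8%) and PMAIP1 (65.3%) and above the other members. The gene body and flanks of BCL2 held 84 control peaks over 128551 bp, 50.1% of the control covered length of all 10 members. After treatment they held 7 SNDX-50469 peaks over 3689 bp. Near the 5′ end 8562 bp was covered in control and 2869 bp after treatment, with a kept share of 33.5%. Over the rest of the gene 119989 bp was covered in control and 820 bp after treatment, with 0.683% kept.

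Inside the counted region, 77.8% of the BCL2 length covered after treatment lay near the 5′ end. This depends on the 5 kb flank, since 8882 bp was kept past it at the 3′ end, against 2869 bp near the 5′ end. A single control peak of 7959 bp, from 63315223 to 63323181 with a −log10 q of 10.0, spanned the 5′ end. After treatment 4 short peaks lay within it. The largest, 1430 bp wide with a −log10 q of 2.42, began 243 bp inside the gene, and the next, 1114 bp wide with a −log10 q of 1.98, ended 224 bp before the 5′ end, so that the 5′ end itself was in no peak.

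Along the body, every one of the 42 bins of 5 kb held control peaks, which covered from 14.6 to 100% of a bin and at least 50% in 26 bins. The control coverage was lowest 45 to 50 kb from the 5′ end and complete from 175 kb to the end of the region. After treatment 5 bins held any peak, 2 of them beside the 5′ end and 3 beyond 160 kb. The strongest control peak of BCL2, from 63100477 to 63149808, was a domain of 49332 bp over the 3′ part of the gene and beyond it, with a −log10 q of 13.7 and rank 632 of all control peaks by −log10 p. Of its 31463 bp inside the counted region 2.27% was kept, and of the 17869 bp past the 3′ flank 49.7% was kept. No other protein-coding gene overlaps this domain.

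**Figure D3:**
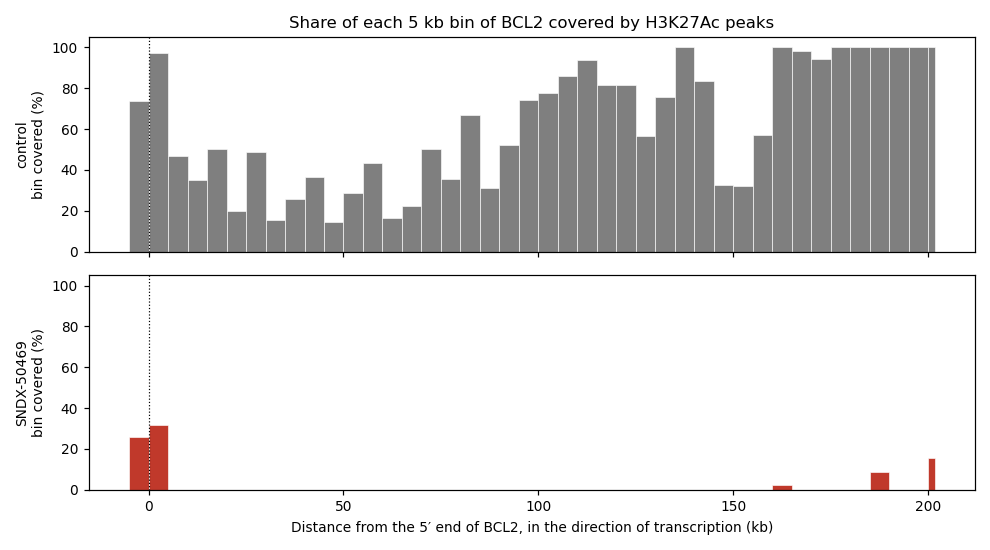
Percent of each 5 kb bin of BCL2 covered by H3K27Ac peaks in control (top) and after SNDX-50469 (bottom), by distance from the 5′ end in kb in the direction of transcription; the last bin is shorter. Control peaks are present in all 42 bins and SNDX-50469 peaks in 5.

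MCL1 and BCL2A1 were set beside BCL2, since AML cells can also draw on these short-lived relatives. MCL1, on chromosome 1 from 150574558 to 150579610 on the minus strand, is a short gene in which most of the marked length lies at the promoter. Near its 5′ end 6249 bp was covered in control and 1414 bp after treatment, with a kept share of 22.6%. Over the rest 1340 bp was covered in control and none after treatment. Its strongest control peak, 3579 bp wide with a −log10 q of 11.4, spanned the 5′ end, and the only SNDX-50469 peak of the gene lay inside it, across the 5′ end from 150578451 to 150579864, with a −log10 q of 2.84.

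BCL2A1, a family member induced by NF-κB in blood cells, lies on chromosome 15 from 79960892 to 79971196 on the minus strand. Its coverage near the 5′ end was about as long as that of BCL2 in control, 8476 bp against 8562 bp, and 0 against 2869 bp after treatment. Over the rest, 4027 bp was covered in control and 0 bp after treatment. None of its 11 control peaks was covered within the counted region. The strongest of them, from 79975024 to 79986601 with a −log10 q of 8.34, reached away from the gene upstream, and the nearest SNDX-50469 peak, 2080 bp wide with a −log10 q of 4.01, lay in that outer part, 6214 bp before the 5′ end. With a window of 10 kb around the 5′ end 11.9% of the BCL2A1 covered length was kept.

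Over gene and flanks the kept share was 2.87% in BCL2, 18.6% in MCL1 and 0% in BCL2A1. This order depended on the flank, since with 20 kb on each side the shares were 6.72%, 6.12% and 6.79%. Of the control coverage, 93.3% lay away from the 5′ end in BCL2, 17.7% in MCL1 and 32.2% in BCL2A1. Near the 5′ end alone the order was BCL2, MCL1, BCL2A1. By number of peaks, 3 of 84 control peaks were kept at BCL2 (3.57%, Wilson 95% interval 1.22 to 9.98), 1 of 9 at MCL1 (11.1%, 1.99 to 43.5) and 1 of 11 at BCL2A1 (9.09%, 1.62 to 37.7), the last of them outside the counted region. These intervals overlap. They treat neighbouring peaks of 1 gene in 1 library as independent draws, which they are not, and measure no spread between samples. With the −log10 p at which the SNDX-50469 list ends applied to both lists, the kept shares near the 5′ end were 36.0% in BCL2, 39.5% in MCL1 and 0% in BCL2A1, so that BCL2 and MCL1 changed places and BCL2A1 stayed at 0.

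BCL2L1, which encodes BCL-XL, lies on chromosome 20 from 31664452 to 31723963 on the minus strand. It had the least covered 5′ end of the members. There 2688 bp was covered in control, 1843 bp of it by a peak with a −log10 q of 6.65 that spanned the 5′ end and reached 27 bp upstream of it, and 0 bp after treatment. The nearest SNDX-50469 peak on either side of the 5′ end was 12011 bp upstream. Over the rest 30569 bp was covered in control and 663 bp after treatment, in 1 peak that lay 48173 bp into the gene within a control peak of 9158 bp. BCL2L1 and BCL2A1 were the members with no length kept near the 5′ end.

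BAX, an effector, on chromosome 19 from 48954875 to 48961798, was the member with the highest kept share over gene and flanks, 53.0%. Near its 5′ end 5648 bp was covered in control and 1319 bp after treatment, or 23.4% kept, and a SNDX-50469 peak of 1197 bp with a −log10 q of 2.66 lay over the 5′ end. Over the rest 5649 bp was covered in control and 5191 bp after treatment, with 82.7% kept. All 5649 bp lay less than 5 kb from the start of FTL, the ferritin light chain gene, which begins 3511 bp past the end of BAX. FTL itself had 9160 bp covered in control near its 5′ end, and 68.8% was kept. The strongest control peak of all members, rank 94 with a −log10 q of 21.3, ran from the end of BAX up to FTL, from 48960633 to 48965054. Which gene the stretch belongs to was not tested. Without BAX, 2.31% of the summed covered length over the rest was kept in place of 4.67%, and without BCL2 11.3%, both computed after the values had been seen.

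BAK1, the other effector, on chromosome 6 from 33572552 to 33580276 on the minus strand, had the lowest kept share among the 8 members with any near the 5′ end. There 4611 bp was covered in control and 405 bp after treatment, or 8.78%. It was the only member whose 5′ end lay in no control peak, the main peak beginning 230 bp inside the gene. Its single SNDX-50469 peak was at the lowest −log10 q of that list, 1.39, and was absent when a −log10 q of at least 2 was asked of both lists. Over the rest 3138 bp was covered in control and 0 bp after treatment.

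The 4 BH3-only genes had some length kept near the 5′ end, and BBC3 differed from the others in the length of its remaining peak. BBC3, which encodes PUMA, lies on chromosome 19 from 47220824 to 47232860 on the minus strand. Near its 5′ end 8359 bp was covered in control and 3601 bp after treatment, with 43.1% kept, the highest share of the members there. Over the rest 7235 bp was covered in control and 2714 bp after treatment, with 37.5% kept. A control peak of 7831 bp, with a −log10 q of 15.2 and rank 431, contained a SNDX-50469 peak of 6103 bp with a −log10 q of 6.13 and rank 598 in its own, shorter list. This peak began 1400 bp inside the gene and not at its outermost 5′ end. BBC3 was the only member with length kept near the 5′ end when a −log10 q of at least 5 was asked of both lists. At that cutoff BCL2L11 and BID had no control peak, and only 938 of the 54061 SNDX-50469 peaks remained.

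BCL2L11, which encodes BIM, on chromosome 2 from 111120914 to 111168445, had 6189 bp covered near the 5′ end in control and 1118 bp after treatment, with 18.1% kept. Its only SNDX-50469 peak lay across the 5′ end, from 111120299 to 111121416, with a −log10 q of 3.08. Over the rest of this longer gene 9277 bp was covered in control and 0 bp after treatment. PMAIP1, which encodes NOXA, a BH3-only partner of MCL1, lies on chromosome 18 from 59899996 to 59904305. It had 5080 bp covered near the 5′ end in control and 740 bp after treatment, with 14.6% kept, and 4268 bp and 0 bp over the rest. BID, which caspases cut to link death receptors to mitochondria, lies on chromosome 22 from 17734138 to 17774665 on the minus strand. It had 8523 bp covered near the 5′ end in control and 2047 bp after treatment, with 23.9% kept. Over the rest of BID 6611 bp was covered in control and 106 bp after treatment.

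Summed near the 5′ ends, 16.5% of 25975 bp was kept in the 4 anti-apoptotic genes and 24.0% of 38410 bp in the 6 pro-apoptotic genes. The ranges overlapped, from 0 to 33.5% and from 8.78 to 43.1%. Over the rest 0.951% of 155925 bp was kept in the former and 20.7% of 36178 bp in the latter, which rested on BAX and BBC3, since BID was at 1.60% and the other 3 pro-apoptotic genes at 0%.

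**Figure D4:**
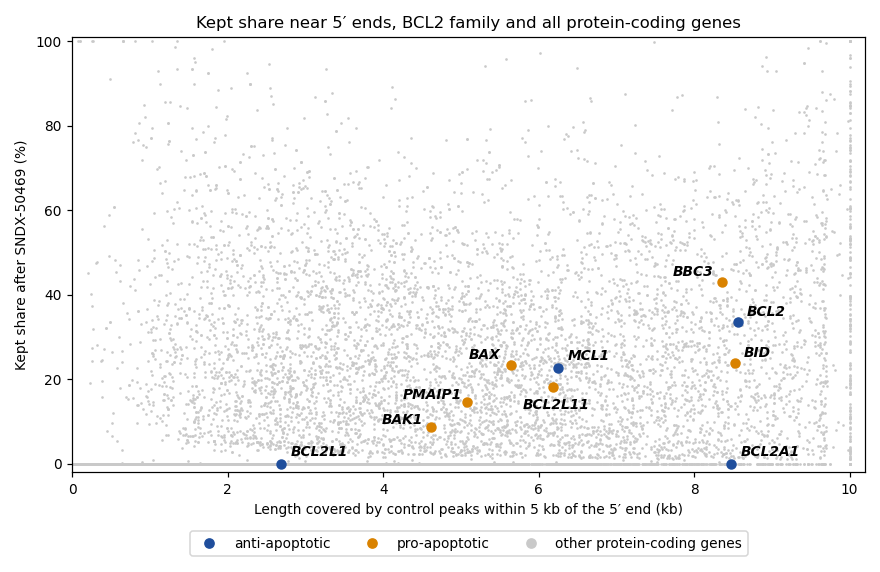
Length under control peaks in the 5 kb on each side of the 5′ end (horizontal axis, kb) and the share of it kept after SNDX-50469 (vertical axis, %), for 13246 protein-coding genes with control coverage (grey), the anti-apoptotic members (blue) and the pro-apoptotic members (orange). The members lie within the grey cloud, between 0% (BCL2L1, BCL2A1) and 43.1% (BBC3).

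Counting control peaks that a SNDX-50469 peak met over 1 bp or more, the kept peaks of the members were mostly the wide and strong ones. A wide peak meets this 1 bp rule more easily, so the difference in width is partly set by the rule. Of the 216 control peaks at the 10 genes 18 were kept (8.33%), beside 8.24% of the whole control list. Of the 25 that belonged to the strongest 10% of the control list by −log10 p, 15 were kept (60.0%, against 44.9% of all such peaks), and of the other 191, 3 were kept (1.57%, against 4.17%). At the median a kept peak was 4478 bp wide with a −log10 q of 6.29, and a peak not kept was 422.5 bp wide with a −log10 q of 1.61. All 23 SNDX-50469 peaks at the members shared at least 1 bp with a control peak, as did 57.0% of that whole list. The whole list is no like background here. Control peaks covered from 26.9% (BCL2L11) to 70.8% (BBC3) of the members' gene and flanks, which makes such overlap easy. The widths of the 23 peaks ran from 106 to 6103 bp, and outside the control positions they covered 517 bp at BAX and 7 bp at BID. The 5′ end itself lay in a control peak in 9 members and in a SNDX-50469 peak in 4 of these, MCL1, BAX, BCL2L11 and BID. The background is 40.3% of genes with a control peak at that position.

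When neighbouring peaks were stitched into clusters, as is done to find super-enhancers, and ranked within each list by fold over background times length, each member lay in 1 of 24668 control clusters. That of BCL2 ranked 64, spanning 333279 bp in 108 peaks. The clusters over BCL2L11 (rank 175), BBC3 (452), BID (517), MCL1 (608), BAX (667) and BCL2A1 (831) were also among the 892 above the point of slope 1 of the ranked curve, and those over PMAIP1 (1484), BCL2L1 (1670) and BAK1 (3067) were not. Most of these clusters reach over neighbouring genes. The share of all protein-coding genes that meet a cluster above that point is not given here, so the count of members says nothing particular about the family. Of 18541 clusters of the SNDX-50469 list 372 were above that point, and of the members only BCL2 met one, at rank 151, a cluster of 53561 bp that touches the 3′ part of the gene and extends past it. BBC3 and BAX ranked 481 and 533, MCL1 4090, and BCL2A1 lay in none.

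Promoter sequence, which did not enter the choice of the members, was read from RefSeq for GRCh38.p14, where 9 of the 10 members were found. The 250 bases before the annotated start are shown for the 2 members with nothing kept near the 5′ end. They are also shown for 2 of the 4 BH3-only genes, all of which kept some length there. They run 5′ to 3′ on the coding strand, with each CG dinucleotide in capitals. The stretches are chr15:79971197-79971446 (minus strand) for BCL2A1, chr20:31723964-31724213 (minus strand) for BCL2L1, chr2:111120664-111120913 (plus strand) for BCL2L11 and chr18:59899746-59899995 (plus strand) for PMAIP1.
BCL2A1: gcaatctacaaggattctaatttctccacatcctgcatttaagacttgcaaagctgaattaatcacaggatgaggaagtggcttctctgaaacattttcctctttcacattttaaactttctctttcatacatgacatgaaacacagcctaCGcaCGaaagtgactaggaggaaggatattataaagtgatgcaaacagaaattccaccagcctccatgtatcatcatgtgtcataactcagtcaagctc
BCL2L1: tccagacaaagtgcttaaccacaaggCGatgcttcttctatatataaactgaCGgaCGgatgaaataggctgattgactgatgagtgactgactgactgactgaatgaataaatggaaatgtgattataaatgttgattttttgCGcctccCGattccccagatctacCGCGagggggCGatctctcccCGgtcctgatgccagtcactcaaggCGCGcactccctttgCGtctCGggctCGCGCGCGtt
BCL2L11: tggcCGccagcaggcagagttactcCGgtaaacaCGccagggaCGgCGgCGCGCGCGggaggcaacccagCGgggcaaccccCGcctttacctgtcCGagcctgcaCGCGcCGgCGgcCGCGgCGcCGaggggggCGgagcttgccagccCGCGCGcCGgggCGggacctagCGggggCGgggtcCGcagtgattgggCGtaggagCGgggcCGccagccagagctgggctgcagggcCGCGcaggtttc
PMAIP1: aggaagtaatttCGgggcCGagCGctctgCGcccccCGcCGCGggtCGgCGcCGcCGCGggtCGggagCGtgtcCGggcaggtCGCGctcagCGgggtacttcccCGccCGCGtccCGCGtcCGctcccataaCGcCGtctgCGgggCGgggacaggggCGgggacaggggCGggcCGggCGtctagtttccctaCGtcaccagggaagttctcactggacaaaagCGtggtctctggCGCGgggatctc

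The BCL2A1 stretch holds 2 CG dinucleotides and a G+C content of 38.8%, that of BCL2L1 17 and 50%, that of BCL2L11 34 and 76.8%, and that of PMAIP1 36 and 72.8%. The stretches of BBC3 and BID, BH3-only genes not printed here, hold 4 each, so the printed ones do not stand for all members with kept length. Control peaks covered all 250 bases in BCL2A1, BCL2L11 and PMAIP1 and 27 in BCL2L1. SNDX-50469 peaks covered all 250 in BCL2L11 and 0 in the other 3, the PMAIP1 peak beginning 155 bp after the start. In BCL2 and BBC3 the stretch used lies 321 and 193 bp inside the outermost 5′ end. The CG count relative to that from base composition was at least 0.6 in BCL2, BCL2L1, BAX, BCL2L11 and PMAIP1, of which 4 of 5 kept some length near the 5′ end (background 56.5% of genes with such promoters), and below 0.6 in BCL2A1, BAK1, BBC3 and BID, of which 3 of 4 did (background 36.5%). The letters TATAAA occurred on either strand in 2 of 9 stretches, those of BCL2L1 and BCL2A1, and in 9.36% of 15841 promoters of that length. CCAAT occurred in 4 (34.5% of promoters), GGGCGG in 4 (55.8%), GAGGAA in BCL2A1 only (23.5%) and TGACAG in BAK1 only (11.9%). These motifs do not contain one another, and such matches describe letters and not binding.

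Other genes of the pathway were taken from 3 further lists. Among 13 other BCL2 family genes 11 had control coverage over gene and flanks. Of these, 10 had a covered length at least 2-fold lower after treatment (background 93.7% of covered genes). Nothing was kept in 4 of the 11, against a background, for all 3 lists, of 6919 of 15491 covered genes. The median kept share of the 11 was 9.69%, beside 7.57% for the 10 members and 2.40% for all covered genes. The covered genes were not matched for covered length. It was highest at BMF, a BH3-only gene, with 53.2% of 30133 bp, and at BCL2L12, with 32.7% of 11191 bp. Of the 4 with nothing kept, BCL2L10, with 13143 bp, and HRK, with 4470 bp, had the most control coverage. Among 19 genes of the mitochondrial and caspase steps, all with control coverage, 17 were at least 2-fold lower and the median kept share was 14.0%. VDAC2, a channel of the outer membrane that binds BAK1, kept 44.8% of 5410 bp and BIRC5, which encodes survivin, 41.8% of 2111 bp, whereas 5 genes kept none. Among 12 regulators of the family 11 were at least 2-fold lower and the median was 22.4%. DDIT3, a transcription factor of the stress response, kept 40.1% of 9694 bp, and FBXW7 (11838 bp), which marks MCL1 for degradation, and STAT5A (8022 bp) were among 3 that kept none.

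BCL2 was set beside 7 target genes of MLL1 fusion proteins (MLL1-FP) that the study names. Their median kept share was 31.9% near the 5′ end and 1.35% over the rest, and BCL2 was at 33.5% and 0.683%. The 7 genes ran from 0% (MEF2C) to 85.6% (LAMP5) near the 5′ end and from 0% (LAMP5) to 6.49% (MEF2C) over the rest. The median of all covered genes was 1.84% near the 5′ end and 0% over the rest, so a low share over the rest is general. Near the 5′ end the 7 genes had a median of 9435 bp covered in control. Genes with at least 2500 bp covered there had a median kept share of 14.5%. The other members had less control coverage over the rest than BCL2, at most 30569 bp, and MCL1 1340 bp. The study names these 7 genes among the loci where H3K27Ac fell after SNDX-50469 in MOLM13 cells, possibly in the same libraries. Their values are therefore a description.

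The genes most like BCL2 in log2(bp + 1) covered near the 5′ end and over the rest, in both libraries (Euclidean distance over these 4 values), included SFMBT2 (0.51) and SENP6 (0.94), with 89890 and 65993 bp covered over the rest in control and 777 and 882 bp after treatment. For MCL1 they were DCLRE1C (0.14), THAP8 (0.16) and RPL29 (0.17), with 1413 bp or less near the 5′ end and 0 bp over the rest after treatment. For BCL2A1 they were DIRAS1 (0.08), NCKAP5L (0.10) and METRNL (0.11), with 7876 to 9004 bp covered near the 5′ end in control and 0 bp in either part after treatment.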

How the data were processed

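H3K27Ac was profiled by ChIPmentation in MOLM13 cells, with 1 control library and 1 SNDX-50469 library (500 nM, 16 h), grouped by their labels. The submitters' processing notes name Trim Galore 0.6.5, Bowtie2 2.3.4.2, Picard 2.9.0, MACS2 2.1.2 and GRCh38, without roles or options, while the supplementary methods name TopHat2 and hg38. The authors deposited 1 broad peak list per library, with each peak's fold over background (a ratio), −log10 p, −log10 q and a score that is 10 times the −log10 q without decimals and was not used. None of these is on a scale shared by the libraries, so positions were compared between lists, and peak strength was used within a list, except that common cutoffs on −log10 p and −log10 q were tried. The use of input in peak calling is not given in the sources used here.

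Gene coordinates were those of GRCh38.p14. Strand came from RefSeq promoters for 15842 genes and, by symbol only, from GENCODE for 3829, MCL1 among them; 19671 of 20033 genes had a strand, and shares of all genes are over these. Covered lengths were summed over merged peaks with Python 3.11.15, numpy 2.4.6, pandas 2.3.3 and scipy 1.17.1, and the interval steps were tested on simulated lists. With 1 library per condition no test was made. The members and the lists were chosen with earlier results of these data known. All members are named, with neighbours whose 5′ end lies in or beside the counted region of a member (FTL), the 2 highest and 2 lowest kept shares of each list, and the 3 genes nearest in pattern to BCL2, MCL1 and BCL2A1; some genes that this rule names are not reported here. Alternatives changed the list thresholds, the window, the flank, the start sites and the overlap rule.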

Additional observations from a re-analysis of the deposited data

How the results depend on the processing

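An alternative was taken to move a value when the result left the Wilson 95% interval of the kept share over its number of control peaks, or, for the number of members, when it changed by over 1.5 times. The interval does not give the spread of a share of length and served here only as a measure of movement. By this measure 17 of 70 alternative values moved, but the others are no evidence of stability: the flank cannot change a share near the 5′ end, nor a narrower window a share over gene and flanks, and with few peaks the interval is wide. The share at MCL1 was 39.5% with a common −log10 p cutoff and 6.12% with a 20 kb flank, that at BCL2A1 11.9% with a 10 kb window and 6.79% with a 20 kb flank, that at BCL2 6.72% with a 20 kb flank, and that over the rest 8.49% with the common cutoff, all inside their intervals. With a −log10 q of at least 5 in both lists, the kept share was 11.0% near the 5′ ends, 9.84% over the rest, 0% at BCL2 and 0% at MCL1. Of the 8 members with control peaks at that cutoff, 1 kept any length near the 5′ end. With the control list trimmed to its 3632 strongest peaks, of equal covered length to the SNDX-50469 list, it was 44.1% near the 5′ ends, 19.9% over the rest and 9.09% at BCL2, and 4 members kept any length; this trimming leaves several members without control peaks. Asking for at least 50% of a control peak to be covered, the shares of peaks were 2.38% near the 5′ ends, 1.68% over the rest, 0% at BCL2 and 0% at MCL1, with 1 member. The share over the rest was 1.92% with a 10 kb window and, in alternatives chosen after seeing the data, 2.31% without BAX and 11.3% without BCL2. The cause of the other changes was not tested. No paired analysis was possible because there is 1 library on either side. The lists give no depth, so a missing peak is no measure of a missing mark.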
